A study of Mus musculus with 8 samples.

Results

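The tumour necrosis factor (TNF) superfamily was followed in cultured smooth muscle cells of the mouse aorta. The members were the rows of the deposited count table whose symbol is Tnfsf or Tnfrsf followed by a number and, in some, letters. The rule found 31 genes among the 55353 rows, of which 11 encode ligands (Tnfsf) and 20 encode receptors (Tnfrsf). It leaves out genes of the superfamily that carry other symbols, such as Tnf, Fas and Cd40, which are given as lists further on. The cells were E12 knockout, E12 wild type, E47 knockout or E47 wild type, with 2 libraries of polyA-enriched RNA for each of the 4 genotypes and 8 in all. E12 and E47 are isoforms of the E protein encoded by Tcf3, and E proteins are basic helix-loop-helix transcription factors. The submitters call the cells primary, say that they were thawed from frozen stocks and lysed, and give the 2 libraries of a genotype as independent extractions. They do not say how the knockouts were made, the animals' age or strain, or whether extractions came from separate cultures, so the p-values cover the variation among extractions alone, which could be technical.

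TNF ligands are mostly membrane proteins of 1 cell that act on receptors of a neighbour, as trimers, and some are shed. Receptors with a death domain can start caspase-8 signalling. Receptors with or without one can act through TRAF adaptors that switch on NF-kB and MAP kinases. Decoy receptors bind ligand and pass on no death signal. In vessel walls the superfamily is known for inflammatory signalling and for the control of calcification by RANKL, its receptor RANK and its soluble decoy osteoprotegerin.

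Total counts per library ran from 13909230 to 27517374, so 3 counts, the limit that a count of 0 allows, were worth 0.117 to 0.224 CPM (the count scaled to the size of the library). That limit covers counting error only, since the reads carry no molecular identifiers. Acta2, smooth muscle actin, averaged 1640 CPM in E12 KO, 1950 in E12 WT, 2110 in E47 KO and 3570 in E47 WT cells. Myh11, smooth muscle myosin, averaged 2.43, 7.45, 6.93 and 98.3 CPM in the same order, and of 8 smooth muscle markers 2 rose and 5 fell in E12 KO cells, where 21.9% of all genes rose and 24.5% fell, and 1 rose and 7 fell in E47 KO cells, where 27.7% rose and 27.5% fell. The summed level of 8 endothelial markers was 5.46 and 5.59 CPM in E12 KO, 9.65 and 11.4 in E12 WT, 2.88 and 3.64 in E47 KO and 573 and 637 in E47 WT libraries, with Cldn5 at 0 throughout and 7 of 7 tested markers lower in E47 KO than in E47 WT cells. The summed level of 6 mesothelial markers was 872 and 892 CPM in E12 KO, 1470 and 1580 in E12 WT, 397 and 411 in E47 KO and 94.2 and 99.7 in E47 WT libraries. The T-cell markers Cd3e and Cd3g had no count in any of the 8 libraries. Tcf3 itself was at 145 and 143 CPM in E12 KO against 109 and 108 in E12 WT libraries, and at 128 and 128 in E47 KO against 94.6 and 93.7 in E47 WT libraries, and a count per gene does not separate its isoforms, so it does not check the labels.

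The promoters below belong to the members whose level differed more than 8-fold between E47 KO and E47 WT cells and for which the RefSeq table of build GRCm38.p6 holds 1 start. They run from 250 bases before the start to 50 from it, 5′ to 3′ on the gene's strand, and capitals mark E-boxes (CANNTG), the words that E proteins bind as dimers.
Tnfsf18, chr1:161494407-161494706, plus strand: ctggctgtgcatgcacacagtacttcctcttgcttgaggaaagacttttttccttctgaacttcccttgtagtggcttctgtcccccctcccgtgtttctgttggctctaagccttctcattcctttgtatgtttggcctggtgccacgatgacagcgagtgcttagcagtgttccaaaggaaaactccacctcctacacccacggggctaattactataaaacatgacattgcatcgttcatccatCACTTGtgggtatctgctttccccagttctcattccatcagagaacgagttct
Tnfsf15, chr4:63745010-63745309, minus strand: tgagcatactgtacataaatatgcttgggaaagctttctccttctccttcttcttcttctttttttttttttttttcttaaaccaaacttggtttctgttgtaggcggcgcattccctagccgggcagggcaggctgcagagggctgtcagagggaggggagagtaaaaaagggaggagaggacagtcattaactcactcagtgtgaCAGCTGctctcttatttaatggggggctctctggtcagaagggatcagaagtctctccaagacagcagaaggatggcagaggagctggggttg
Tnfsf11, chr14:78307994-78308293, minus strand: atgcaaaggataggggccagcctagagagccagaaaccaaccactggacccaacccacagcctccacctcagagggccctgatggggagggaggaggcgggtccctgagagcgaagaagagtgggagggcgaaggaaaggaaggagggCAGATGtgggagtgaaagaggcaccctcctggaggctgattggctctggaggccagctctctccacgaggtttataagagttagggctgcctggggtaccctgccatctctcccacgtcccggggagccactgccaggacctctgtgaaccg
Tnfrsf21, chr17:43016305-43016604, plus strand: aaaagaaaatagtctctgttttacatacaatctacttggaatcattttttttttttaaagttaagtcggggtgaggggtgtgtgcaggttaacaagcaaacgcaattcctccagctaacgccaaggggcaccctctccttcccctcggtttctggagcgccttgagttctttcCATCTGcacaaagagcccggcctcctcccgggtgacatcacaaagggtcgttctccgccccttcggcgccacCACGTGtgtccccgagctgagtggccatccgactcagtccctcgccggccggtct

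In these windows the first base of the E-box lay 3 bases before the start of Tnfsf18, 43 before that of Tnfsf15, 102 before that of Tnfsf11, and 77 and 5 before that of Tnfrsf21. The E-box of Tnfsf15 is CAGCTG. RefSeq held 28 promoters of 24 of the 31 members, and 22 of these 28 (78.6%) had a CANNTG, against 72.3% of all 32851 promoters of the same length. For CAGCTG the shares were 21.4% and 16.3%, and for CAGGTG on either strand 32.1% and 20.2%. CANNTG and CAGCTG read the same on both strands. CAGCTG and CAGGTG are themselves forms of CANNTG. Tnfrsf26 and Tnfrsf19 also differed more than 8-fold, and Tnfrsf19 has 2 starts in the table.

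Of the 31 members, 20 had counts enough for edgeR's low-count filter and were tested, 6 ligands and 14 receptors. The other 11 were near or at 0. Tnfsf14 (LIGHT), Tnfrsf13b (TACI) and Tnfrsf17 (BCMA), the last pair being B-cell receptors, had no count in any library. Tnfsf4 (OX40 ligand) had 2 counts over all 8 libraries, Tnfsf10 (TRAIL) had 3, Tnfsf8 (CD30 ligand) and Tnfsf13b (BAFF) had 6 each, Tnfrsf13c (BAFF receptor) had 7, Tnfrsf8 (CD30) had 14, Tnfrsf9 had 21 and Tnfrsf4 (OX40) had 34. Most of these genes are known from lymphocytes, and the T-cell markers Cd3e and Cd3g were also at 0 here. Of the tested members, Tnfsf11, Tnfrsf14, Tnfrsf19 and Tnfrsf18 passed the filter only through the E47 WT libraries. The first 3 are high there and at or near 0 elsewhere, so a lower level in E47 KO or E12 WT cells was built into their being tested, and their values are given as a description.

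**Figure D1:**
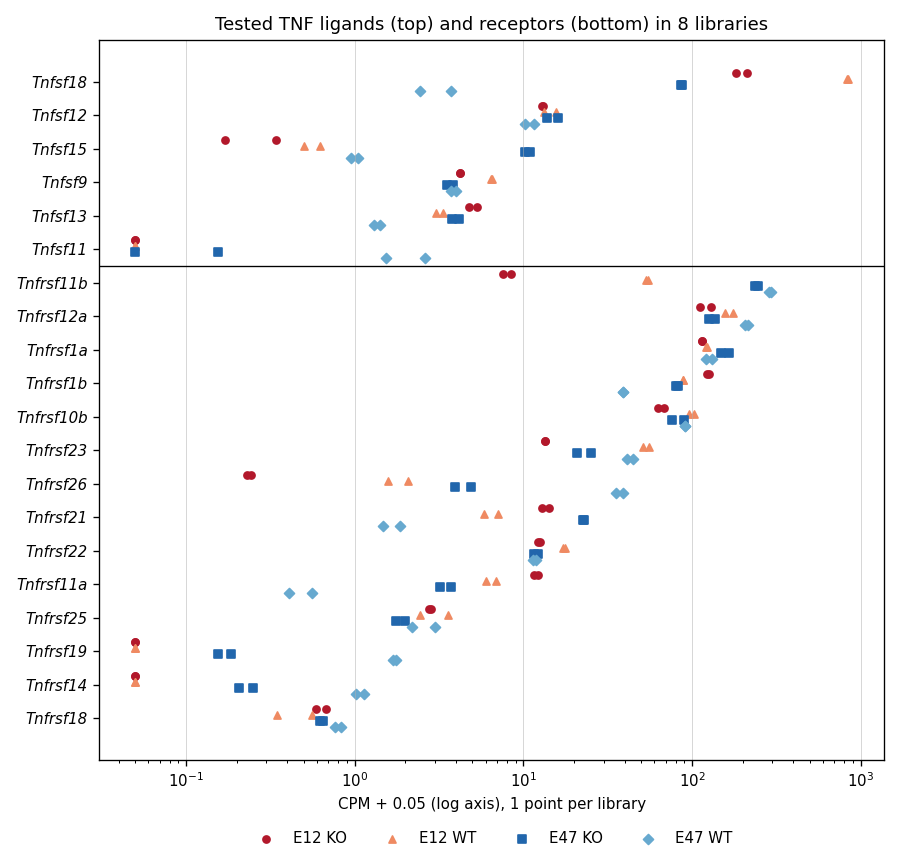
Level of each of the 20 tested members in each library, as CPM plus an offset of 0.05 on a log axis, with ligands above the line and receptors below it. The genotypes lie far apart for Tnfsf18, Tnfsf15, Tnfrsf11b, Tnfrsf26, Tnfrsf21 and Tnfrsf11a, while Tnfsf12, Tnfrsf1a and Tnfrsf22 lie close together.

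The summed level of all members was 704 and 714 CPM in E12 KO and 1490 and 1480 CPM in E12 WT libraries, and 890 and 877 CPM in E47 KO and 880 and 881 CPM in E47 WT libraries. The E47 totals were thus alike although their makeup was not. Tnfsf18 made up 25.8% and 29.8% of members' counts in E12 KO, 56.7% and 56.5% in E12 WT, 9.76% and 9.79% in E47 KO and 0.415% and 0.27% in E47 WT libraries. Tnfrsf11b made up 1.2% and 1.06% in E12 KO, 3.61% and 3.73% in E12 WT, 27.5% and 27.0% in E47 KO and 32.4% and 33.7% in E47 WT libraries.

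Levels of different genes are compared per kilobase of annotated exon (GENCODE M21). In E12 KO cells Tnfsf18 stood highest at 95.4 CPM per kb, followed by Tnfrsf12a at 62.4, Tnfrsf1a at 44.2 and Tnfrsf1b at 32.8. In E12 WT cells the order was Tnfsf18 at 406, Tnfrsf12a at 86.4, Tnfrsf1a at 47 and Tnfrsf1b at 23.2 CPM per kb. In E47 KO cells Tnfrsf11b led at 85.5, before Tnfrsf12a at 68.5, Tnfrsf1a at 60.8 and Tnfsf18 at 41.8 CPM per kb. In E47 WT cells Tnfrsf12a at 109 and Tnfrsf11b at 103 CPM per kb led, Tnfrsf1a followed at 48.7, and Tnfsf18 was at 1.46. Tnfrsf12a and Tnfrsf1a, receptors for TWEAK and TNF, were thus among the 3 highest members in all 4 genotypes, whereas Tnf itself had no count.

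The first comparison asked which members differ when E12 is lost, and the second which differ when E47 is lost. In E12 KO cells 4 members rose and 8 fell against E12 WT, 5 were compared and did not pass the test, and 3 had no count in either genotype. Over all 13992 genes tested, 21.9% rose and 24.5% fell in that comparison, 46.4% in all. In E47 KO cells 8 members rose, 7 fell and 5 did not pass the test against E47 WT, with 27.7% of all genes higher, 27.5% lower and 55.2% called in all. Calls are edgeR quasi-likelihood tests with an adjusted p under 0.05 over all genes tested. Past 2-fold in E12 KO cells were 1 rise and 4 falls, 5 of 20 members (25%), against 3.83% and 8.11% of all genes and 11.9% in all. Past 2-fold in E47 KO cells were 6 rises and 4 falls, 10 of 20 members (50%), against 7.7% and 7.19% of all genes and 14.9% in all. Without the 4 members that passed the filter only through E47 WT libraries, 8 of 16 rose and 4 fell in E47 KO cells, of which 6 rises and 1 fall (Tnfrsf26) were past 2-fold. Those 4 members are included in the E47 library separation and median given next, and all 4 had both KO libraries below both WT libraries. The filter favours that for these members, so the E47 separation and median are given as a description. Both KO libraries lay above or below both WT libraries for 16 of 20 members in E12, against 71.3% of all genes, and for 18 of 20 in E47, against 77.6%. The median absolute log2 change was 0.55 over members and 0.31 over all genes in E12, and 0.97 and 0.35 in E47. The 3 members with no count in E12 cells enter the E12 values as overlapping and with a log2 change of 0. No test was run on these shares. The 2 comparisons share no library. In both knockouts Tnfrsf11a, Tnfrsf1b, Tnfrsf21 and Tnfsf13 rose and Tnfrsf11b, Tnfrsf12a, Tnfrsf23 and Tnfrsf26 fell, so that 8 members were called the same way in both, against 16.1% of all genes. Only Tnfsf18, of the members, was called in opposite directions, as were 13.2% of all genes.

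**Figure D2:**
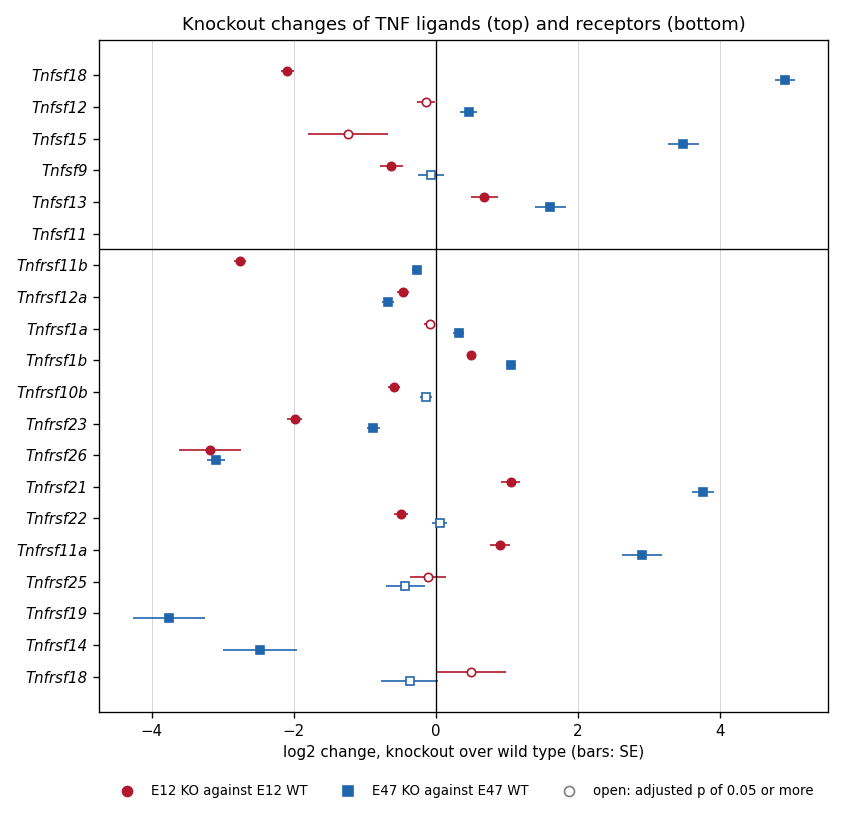
Log2 change of each tested member in the E12 knockout (circles) and in the E47 knockout (squares), knockout over wild type, with SE bars and open symbols where the adjusted p was 0.05 or more. Tnfsf18 lies at -2.09 in E12 and 4.91 in E47, and Tnfsf11 in both knockouts and Tnfrsf14 and Tnfrsf19 in E12 are not drawn because a genotype had 3 counts or fewer. The filled symbols of Tnfrsf14 and Tnfrsf19 in E47 are a description, since both passed the low-count filter only through E47 WT libraries.

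Among the ligands, Tnfsf18 (GITR ligand, a costimulator of T cells also made by endothelium) had the widest range. It was at 182 and 213 CPM in E12 KO against 844 and 834 CPM in E12 WT libraries, and at 86.9 and 85.8 CPM in E47 KO against 3.66 and 2.38 CPM in E47 WT libraries. No libraries of different genotypes overlapped, and the order from high to low was E12 WT, E12 KO, E47 KO and E47 WT, with a mean 278-fold higher in the first than in the last. It fell in E12 KO cells (log2 change -2.09, SE 0.092, adjusted p = 1.5e-10) and rose in E47 KO cells (4.91, SE 0.137, adjusted p = 4.8e-13). The test of the difference between these changes gave -7.00 (adjusted p = 2.2e-13). The mesothelial marker sum had the same order of genotypes. Of its 6 markers 5 were lower in E12 KO cells, against 24.5% of all genes, and 6 were higher in E47 KO cells, against 27.7%. The endothelial marker sum was highest in E47 WT libraries, at 573 and 637 CPM, where Tnfsf18 was lowest. The part of either list in the result was not tested. In such bulk samples, fewer cells of a type and less RNA per cell cannot be told apart. Tnfsf18 lies on chromosome 1 from 161494655 to 161505290, and Tnfsf4, its neighbour 76244 bases away, had 2 counts in all. Its receptor gene Tnfrsf18 was low throughout and is described with the receptors.

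Tnfsf15 (TL1A, a ligand of endothelial cells and of activated myeloid cells) was high in a single genotype. It was at 0.29 and 0.12 CPM in E12 KO and 0.575 and 0.449 CPM in E12 WT libraries, and at 10.2 and 10.9 CPM in E47 KO against 1 and 0.898 CPM in E47 WT libraries. Both E47 KO libraries were thus above all 6 others. It rose in E47 KO cells (3.48, SE 0.215, adjusted p = 3.7e-09), while in E12 the change of -1.24 did not pass the test (adjusted p = 0.087). The changes differed by -4.73 (adjusted p = 2.6e-05). The endothelial markers ran the other way in the E47 cells, at 2.88 and 3.64 CPM in E47 KO against 573 and 637 CPM in E47 WT libraries. The mesothelial markers rose with Tnfsf15 in the E47 cells, at 397 and 411 CPM in E47 KO against 94.2 and 99.7 CPM in E47 WT libraries. They were higher still in the E12 cells, where Tnfsf15 was lowest, at 872 and 892 CPM in E12 KO and 1470 and 1580 CPM in E12 WT libraries. The summed level of 8 macrophage markers was 11.4 and 11.6 CPM in E47 KO against 15.3 and 16.4 CPM in E47 WT libraries. Of the 4 tested macrophage markers 1 rose and 2 fell in E47 KO cells, where 27.7% of all genes rose and 27.5% fell. The part of any of these lists in the result was not tested. Tnfrsf25 (DR3), its receptor with a death domain, was at 2.80 and 2.71 CPM in E12 KO, 3.51 and 2.39 in E12 WT, 1.72 and 1.94 in E47 KO and 2.94 and 2.15 in E47 WT libraries and passed neither test (-0.11, adjusted p = 0.74, and -0.43, adjusted p = 0.19).

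Tnfsf11 (RANKL, the ligand that drives osteoclast formation) had no count in the E12 cells of either genotype. In the E47 cells it had 2 and 0 counts in KO against 36 and 38 counts in WT libraries, or 0.104 and 0 CPM against 2.58 and 1.48 CPM. The ratio of the summed counts was 31.9-fold lower in KO than in WT, with a 95% exact counting interval of 8.54 to 269. The gene was near its detection limit in 3 genotypes, so only its presence in E47 WT cells was measured with any precision.

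The other tested ligands moved less. Tnfsf13 (APRIL, a B-cell survival factor) was at 5.27 and 4.75 CPM in E12 KO against 3 and 3.29 CPM in E12 WT libraries, and at 4.11 and 3.75 CPM in E47 KO against 1.36 and 1.25 CPM in E47 WT libraries. It rose in both (0.68, adjusted p = 0.0084, and 1.61, adjusted p = 2.5e-05), with both knockout libraries above both wild-type ones. The E12 call ended with DESeq2 (adjusted p = 0.07), without the first E12 WT library (0.066) and without the first E12 KO library (0.066). Tnfsf12 (TWEAK, the ligand of Fn14) was at 12.9 and 13.1 CPM in E12 KO against 13.2 and 15.6 CPM in E12 WT libraries, and at 13.7 and 16.1 CPM in E47 KO against 11.5 and 10.2 CPM in E47 WT libraries. It rose in E47 KO cells (0.46, adjusted p = 0.005), a call that ended without the second E47 WT library (0.36, adjusted p = 0.086) or the second E47 KO library (0.36, adjusted p = 0.058), and did not pass the test in E12 (-0.14, adjusted p = 0.39). Tnfsf12 and Tnfsf13 lie 465 bases apart on chromosome 11, and 48.3% and 60% of their exon bases also belong to the read-through gene Tnfsfm13, so both counts are uncertain. Tnfsf9 (ligand of the costimulatory receptor CD137) fell in E12 KO cells, at 4.15 and 4.15 CPM against 6.45 and 6.36 CPM in E12 WT libraries (-0.63, adjusted p = 0.0056). In E47 cells it was at 3.80 and 3.48 CPM in KO and 3.66 and 3.94 CPM in WT libraries, which overlap. Of its exon bases 14.9% overlap a noncoding gene, from which unstranded counts do not separate it.

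**Figure D3:**
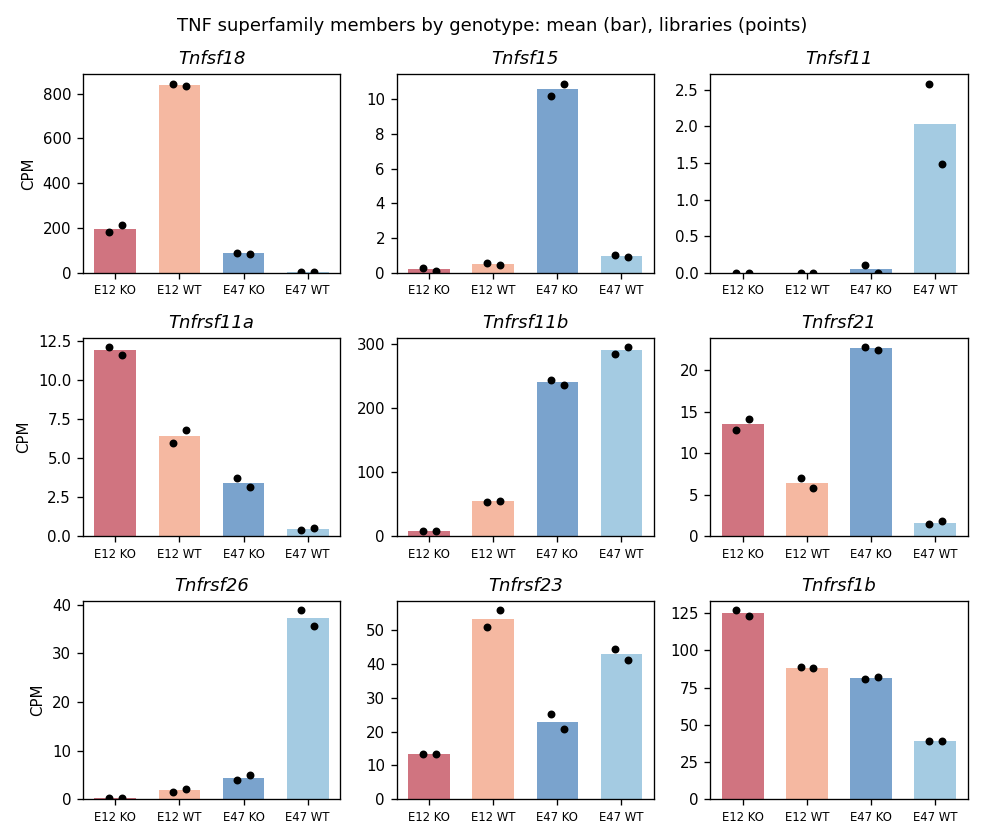
CPM of 9 members by genotype, with bars for the mean, points for the 2 libraries and axes from 0. Tnfsf18 stands highest in E12 WT, Tnfsf15 and Tnfrsf21 in E47 KO, Tnfsf11 and Tnfrsf26 in E47 WT, and Tnfrsf11a and Tnfrsf1b in E12 KO cells. Tnfsf11 passed the low-count filter only through E47 WT libraries.

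Tnfrsf21 (DR6, known from neurons and T cells) was at 12.8 and 14.1 CPM in E12 KO against 7.03 and 5.84 CPM in E12 WT libraries, and at 22.8 and 22.5 CPM in E47 KO against 1.43 and 1.80 CPM in E47 WT libraries. It rose by 1.05 in E12 KO cells (SE 0.133, adjusted p = 1.3e-05) and by 3.76 in E47 KO cells (SE 0.153, adjusted p = 2.9e-11), and the changes differed by -2.71 (adjusted p = 1.2e-07). No libraries of different genotypes overlapped. Tnfrsf1a, the main TNF receptor of most cells, was at 115 and 114 CPM in E12 KO against 121 and 123 CPM in E12 WT libraries and did not pass the test (-0.09, adjusted p = 0.37). It was at 148 and 167 CPM in E47 KO against 132 and 121 CPM in E47 WT libraries and rose by 0.32 (SE 0.0748, adjusted p = 0.0021). Its range over genotypes, 1.37-fold, was among the narrowest here, with that of Tnfsf12.

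Tnfrsf10b, the TRAIL receptor of the mouse with a death domain, was at 63.3 and 68.4 CPM in E12 KO against 95.7 and 103 CPM in E12 WT libraries. It fell by 0.59 on the log2 scale (SE 0.0838, adjusted p = 4e-05). In E47 cells it was at 89.6 and 76.2 CPM in KO against 91.5 and 91.2 CPM in WT libraries and did not pass the test (-0.14, adjusted p = 0.17). Without the first E47 KO library that change was -0.26 and passed it (adjusted p = 0.035). The changes differed by -0.45 (adjusted p = 0.0051).

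Among decoy receptors Tnfrsf11b and Tnfrsf23 fell in both knockouts, and Tnfrsf22 passed the test in E12 KO cells. Tnfrsf11b (osteoprotegerin, a secreted trap for RANKL and TRAIL) was at 8.45 and 7.58 CPM in E12 KO against 53.7 and 55.1 CPM in E12 WT libraries, and at 245 and 237 CPM in E47 KO against 285 and 296 CPM in E47 WT libraries. In E12 KO cells it fell by 2.76 on the log2 scale (SE 0.0883, adjusted p = 5e-12). In E47 KO cells it fell by 0.27 (SE 0.0648, adjusted p = 0.0025), and the changes differed by -2.48 (adjusted p = 1.3e-10). All 4 E47 libraries lay above all 4 E12 libraries, and the highest mean was 36.3 times the lowest. Tnfrsf11a (RANK, the signalling receptor that osteoprotegerin competes with) ran in the opposite order. It was at 12.1 and 11.6 CPM in E12 KO against 5.94 and 6.81 CPM in E12 WT libraries, and at 3.69 and 3.14 CPM in E47 KO against 0.359 and 0.507 CPM in E47 WT libraries. It rose by 0.90 in E12 KO cells (SE 0.144, adjusted p = 0.00012) and by 2.90 in E47 KO cells (SE 0.287, adjusted p = 7.3e-07). Of this axis, E47 WT cells had the highest levels of ligand and decoy and the lowest of the receptor. The ligand gene Tnfsf11 passed the filter only through E47 WT libraries, so its place there is a description. E12 KO cells had the lowest level of the decoy and the highest of the receptor among the genotypes. Like E12 WT cells, E12 KO cells had no count of the ligand.

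Tnfrsf22, Tnfrsf23 and Tnfrsf26 form a cluster on mouse chromosome 7 between 143607659 and 143685872, and Tnfrsf22 and Tnfrsf23 encode decoys that bind TRAIL in the mouse. Tnfrsf23 was at 13.4 and 13.5 CPM in E12 KO against 51.0 and 56.0 CPM in E12 WT libraries, and at 25.3 and 20.7 CPM in E47 KO against 44.6 and 41.2 CPM in E47 WT libraries. It fell by 1.99 (SE 0.103, adjusted p = 8.7e-10) and by 0.88 (SE 0.0969, adjusted p = 2.2e-06), with both knockouts below both wild types. Tnfrsf26 was at 0.193 and 0.18 CPM in E12 KO against 1.53 and 2.02 CPM in E12 WT libraries, and at 3.90 and 4.88 CPM in E47 KO against 38.9 and 35.6 CPM in E47 WT libraries. It fell by 3.18 (SE 0.432, adjusted p = 2.6e-05), on 4 and 3 counts in the E12 KO libraries, and by 3.09 (SE 0.127, adjusted p = 3.2e-11). The test of the difference did not pass (-0.09, SE 0.369, adjusted p = 0.87). Tnfrsf22 was at 12.5 and 12.1 CPM in E12 KO against 17.1 and 17.7 CPM in E12 WT libraries and fell by 0.49 (adjusted p = 0.001). In E47 it was at 12.2 and 11.6 CPM in KO and 11.8 and 11.4 CPM in WT libraries, which overlap (0.05, adjusted p = 0.72). Of the 50-base words in transcripts of Tnfrsf22 17.3% also occur in Tnfrsf23, and 18% of those of Tnfrsf23 occur in Tnfrsf22, so the counts of this pair are uncertain where reads fall there. Tnfrsf26 shared such words with no receptor gene, and 1.89% of them with a noncoding gene on the other strand.

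Tnfrsf1b, the receptor of membrane-bound TNF, was at 127 and 123 CPM in E12 KO against 88.8 and 88.1 CPM in E12 WT libraries, and at 80.6 and 82.4 CPM in E47 KO against 39.2 and 39.1 CPM in E47 WT libraries. It rose by 0.50 (SE 0.0656, adjusted p = 1.8e-05) and by 1.06 (SE 0.0693, adjusted p = 7.6e-09), with a difference of -0.56 (adjusted p = 0.00022). Tnfrsf12a (Fn14, the TWEAK receptor, induced in injured vessels) was at 130 and 111 CPM in E12 KO against 176 and 157 CPM in E12 WT libraries, and at 137 and 127 CPM in E47 KO against 205 and 216 CPM in E47 WT libraries. It fell by 0.47 (SE 0.0845, adjusted p = 0.00036) and by 0.67 (SE 0.0839, adjusted p = 8.6e-06), and the difference of 0.20 did not pass the test (SE 0.119, adjusted p = 0.18). These 2 receptor genes thus changed in opposite directions in both knockouts.

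Tnfrsf14 and Tnfrsf19 had counts in E47 cells alone. Tnfrsf14 (HVEM, the receptor of LIGHT) had no count in the 4 E12 libraries and was at 0.156 and 0.201 CPM in E47 KO against 1.08 and 0.976 CPM in E47 WT libraries, a log2 difference of -2.48 (SE 0.522). Tnfrsf19 (TROY, an orphan receptor of epithelia and brain) had no count in the E12 libraries either and was at 0.104 and 0.134 CPM in E47 KO against 1.72 and 1.64 CPM in E47 WT libraries, a log2 difference of -3.76 (SE 0.51). No E47 knockout test is printed for this pair, which passed the filter only through E47 WT libraries, though their calls are in the counts above. Both rest on few counts, with 3 and 3 counts of Tnfrsf14 and 2 and 2 of Tnfrsf19 in the E47 KO libraries. Tnfrsf14, Tnfrsf19, Tnfsf11 and Tnfrsf18 were highest in E47 WT libraries, through which alone they passed the filter. Tnfrsf26, Tnfrsf11b and Tnfrsf12a were also highest there. In these libraries the endothelial markers were at 573 and 637 CPM. The summed level of 8 smooth muscle markers, at 4210 and 4470 CPM, was also the highest of the 4 genotypes. Acta2 gave most of that sum, averaging 3570 CPM in E47 WT cells. Of the 8 markers 7 were lower in E47 KO than in E47 WT cells, against 27.5% of all genes. Myocd was higher, averaging 12.2 CPM in E47 KO against 4.9 CPM in E47 WT cells. The part of either list in the result was not tested. Tnfrsf18 (GITR, the receptor of the Tnfsf18 product) was at 0.628 and 0.541 CPM in E12 KO, 0.511 and 0.299 in E12 WT, 0.572 and 0.602 in E47 KO and 0.717 and 0.781 in E47 WT libraries and passed neither knockout test (0.50, adjusted p = 0.43, and -0.37, adjusted p = 0.47). Of its exon bases 27.2% overlap an antisense gene, so this low count is uncertain.

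Where the difference between the E12 and E47 knockout changes was tested, 12 of 17 members compared were lower, that is, more negative in E12, and 0 were higher, against 25.7% and 22.9% of all genes and 48.6% in all. Past 2-fold were 6 lower and 0 higher, against 11.3% and 6.33% of all genes and 17.6% in all. The 0 is from edgeR, and there were also 0 at an unadjusted p under 0.05 and 0 with DESeq2. Tnfsf18 (-7.00), Tnfsf15 (-4.73), Tnfrsf21 (-2.71), Tnfrsf11b (-2.48), Tnfrsf11a (-2) and Tnfrsf23 (-1.10) differed most. The 3 members with no count in E12 cells, Tnfsf11, Tnfrsf14 and Tnfrsf19, have no such estimate. All 3 were lower in E47 KO than in E47 WT cells, so the 0 higher covers only members with counts in E12 cells. No genes were left out in this way from the shares over all genes.

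The wild types also differed. In E12 WT against E47 WT cells 9 members were higher and 6 lower of 20, against 27.8% and 27.6% of all genes and 55.4% in all. Past 2-fold were 5 higher and 5 lower, against 8.43% and 9.41% of all genes and 17.8% in all. Without the 4 members that passed the filter only through E47 WT libraries, 9 of 16 were higher and 3 lower, of which 5 higher and 2 lower (Tnfrsf26 and Tnfrsf11b) were past 2-fold. Libraries did not overlap for 18 of 20 members, a count that includes those 4, against 76.7% of all genes. Tnfsf18 was higher by 8.19 (SE 0.138), Tnfrsf11a by 3.78 and Tnfrsf21 by 1.95, while the log2 difference was -4.39 for Tnfrsf26 and -2.42 for Tnfrsf11b. Tnfsf11 was at least 18.1-fold lower, Tnfrsf19 at least 16.1-fold lower and Tnfrsf14 at least 9.78-fold lower, with 3 counts over both E12 WT libraries as the limit. This comparison shares its libraries with the knockout comparisons. In E12 KO against E47 KO cells 3 members were higher and 9 lower, against 25.9% and 27.0% of all genes and 52.9% in all. Past 2-fold were 2 higher and 5 lower, against 4.53% and 10.1% of all genes and 14.6% in all, and libraries did not overlap for 16 of 20 members, against 76.4%. Tnfrsf11a was higher by 1.78, Tnfsf18 by 1.19 and Tnfrsf1b by 0.62, while the log2 difference was -5.58 for Tnfsf15, -4.90 for Tnfrsf11b and -4.48 for Tnfrsf26. The calls of Tnfrsf14 and Tnfrsf19 there rest on 6 and 4 counts in E47 KO cells against 0 in E12 KO cells and ended when single libraries were left out.

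Of 7 ligand genes of the superfamily that carry other symbols, Tnf, Fasl, Cd40lg and Cd70 had no count in any library, Lta and Ltb had at most 3 in one, and only Eda (ectodysplasin) was tested. Eda had 0 and 0 counts in E12 KO against 3 and 8 in E12 WT libraries, at least 4.72-fold lower, and was at 24 and 25 counts in E47 KO against 9 and 20 in E47 WT libraries (0.97, adjusted p = 0.048). Of 8 receptor genes 5 were tested, of which 0 rose and 3 fell in E12 KO cells (median -0.28) and 2 rose and 0 fell in E47 KO cells (median 0.11). Over all genes tested, 21.9% rose and 24.5% fell in E12 KO cells, and 27.7% rose and 27.5% fell in E47 KO cells. Fas, the death receptor of Fas ligand, averaged 29.8 CPM in E12 KO against 36.1 in E12 WT cells (-0.28, adjusted p = 0.024) and 67.3 CPM in E47 KO against 57.3 in E47 WT cells (0.24, adjusted p = 0.026). Relt fell by 0.47 in E12 KO cells, and Eda2r fell by 0.23 in E12 KO and rose by 0.20 in E47 KO cells. Ltbr, the lymphotoxin beta receptor, passed neither test (-0.14, adjusted p = 0.11, and 0.11, adjusted p = 0.18).

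Of 19 adaptors and regulators of death signalling, 6 rose and 4 fell in E12 KO cells (median 0.092) and 8 rose and 3 fell in E47 KO cells (median 0.083). Among all genes 21.9% rose and 24.5% fell in E12 KO cells and 27.7% rose and 27.5% fell in E47 KO cells. Casp8, the initiator caspase of death receptors, averaged 56.9 CPM in E12 KO against 43.3 in E12 WT cells (0.39) and 41.0 CPM in E47 KO against 31.4 in E47 WT cells (0.38). Cflar, its inhibitor, fell in both, averaging 104 CPM in E12 KO against 137 in E12 WT cells (-0.40) and 110 CPM in E47 KO against 218 in E47 WT cells (-0.99). Traf4 rose (0.44 and 1.15) and Traf3, a brake on the noncanonical NF-kB pathway, fell in both (-0.45 and -0.76). Traf5 rose in E12 KO cells (1.41) and did not pass the test in E47 (-0.26, adjusted p = 0.18).

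Of 12 IKK and MAP3K kinase genes, 1 rose and 2 fell in E12 KO cells, where 46.4% of all genes were called, and 3 rose and 2 fell in E47 KO cells, where 55.2% were called. Map3k5 rose in both (0.58, adjusted p = 0.00027, and 0.97, adjusted p = 4.8e-06). Map3k14 (NIK, the kinase of the noncanonical NF-kB pathway) averaged 23.0 CPM in E47 KO against 9.35 in E47 WT cells (1.26, adjusted p = 2e-06) and did not pass the test in E12 (-0.33, adjusted p = 0.051). Of 13 NF-kB subunits and inhibitors, 3 rose and 3 fell in E12 KO cells (median -0.048) and 9 rose and 1 fell in E47 KO cells (median 0.62), beside the same 46.4% and 55.2% of all genes called. Bcl3, a coactivator of NF-kB dimers, averaged 7.67 CPM in E47 KO against 1.14 in E47 WT cells (2.77) and fell by 0.44 in E12 KO cells. Nfkb1 rose in E12 KO cells (0.42, adjusted p = 5e-04) and fell in E47 KO cells (-0.39, adjusted p = 0.00057). Nfkbia, the inhibitor that NF-kB itself induces, rose in both (0.51 and 0.85), and Nfkb2 rose in E47 KO cells only (0.84, against -0.17 with adjusted p = 0.051 in E12, and a tested difference of -1.01, adjusted p = 8.7e-07).

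Of 15 NF-kB inducible genes tested, 3 rose and 9 fell in E12 KO cells (median -0.91) and 9 rose and 4 fell in E47 KO cells (median 1.2), beside medians of -0.0082 and 0.0091 over all genes, of which 21.9% rose and 24.5% fell in E12 KO cells and 27.7% rose and 27.5% fell in E47 KO cells. Mmp3, stromelysin, averaged 28.9 CPM in E12 KO against 98.8 in E12 WT cells (-1.77) and 16.9 CPM in E47 KO against 0.41 in E47 WT cells (5.35). Ptgs2, the inducible cyclooxygenase, averaged 82.5 CPM in E12 KO against 399 in E12 WT cells (-2.27) and 248 CPM in E47 KO against 87.9 in E47 WT cells (1.49). Icam1, an adhesion receptor for leukocytes that is also strong in endothelium, fell in both, at 1.19 CPM in E12 KO against 7.85 in E12 WT cells (-2.69) and 2.24 CPM in E47 KO against 91.1 in E47 WT cells (-5.36). Vcam1 rose in E47 KO cells (1.62) and did not pass the test in E12 (-0.18, adjusted p = 0.051). Csf1 fell in both (-1.29 and -0.93). Several of these genes are also expressed by endothelial or mesothelial cells, whose markers differ between the genotypes as given above, and the part of those markers was not tested.

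**Figure D4:**
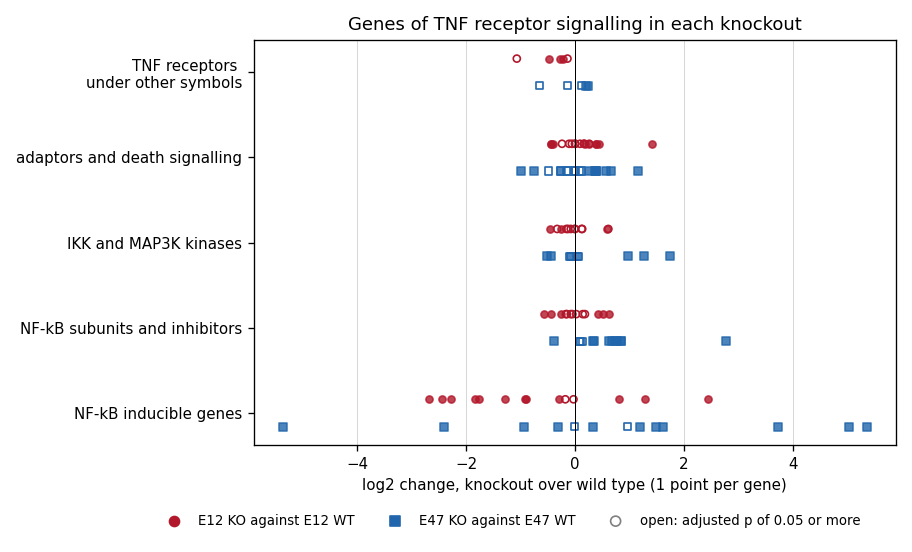
Log2 change, knockout over wild type, of the tested genes of 5 lists around TNF receptor signalling in the E12 knockout (circles) and the E47 knockout (squares), with open symbols where the adjusted p was 0.05 or more and genes with 3 counts or fewer in a genotype left out. NF-kB subunits and inhibitors and NF-kB inducible genes lie mostly above 0 in the E47 knockout, and inducible genes mostly below 0 in the E12 knockout.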

How the data were processed

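The deposited table holds whole-number counts per gene symbol, not normalized, with 1 column per library. Per the labels' protocols, the libraries were polyA-enriched and unstranded, and the submitters' processing notes name FastQC, HISAT, featureCounts and the builds GRCm38 and mm10. No source used here gives versions, settings, the annotation or the treatment of reads that match several genes. Columns were matched to samples by library name and grouped by genotype. Genes were kept by edgeR's filter on low counts (13992 of 55353), TMM-scaled and fitted as 4 groups over all 8 libraries with edgeR 4.0.16 in R 4.3.3 (quasi-likelihood F test, Benjamini-Hochberg adjustment over the genes tested, common biological coefficient of variation 0.0598). The same steps were tested on simulated data. Positions, exon lengths, exon overlaps and shared 50-base words come from GENCODE M21 (GRCm38), and promoters from RefSeq (GRCm38.p6). Folds against a genotype with 0 counts use 3 counts over the group, and the printed list medians are the same with such groups set to that limit. The members and the lists were chosen with earlier results of these data known. Every member is accounted for, and from each list up to 4 tested genes with the lowest p per knockout were eligible to be named. Alternatives were DESeq2 1.42.0, other scalings and filters, fits of the compared groups alone and leaving out each library.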

Additional observations from a re-analysis of the deposited data

Results flagged for a closer look

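The knockout changes of 12 members differed between the E12 and E47 cells by edgeR's test of the difference (E12 change minus E47 change, log2 scale, adjusted p under 0.05 over all genes tested). The differences were -7.00 for Tnfsf18, -4.73 for Tnfsf15, -2.71 for Tnfrsf21, -2.48 for Tnfrsf11b, -2 for Tnfrsf11a, -1.10 for Tnfrsf23, -0.93 for Tnfsf13, -0.60 for Tnfsf12, -0.56 for Tnfrsf1b, -0.54 for Tnfrsf22, -0.45 for Tnfrsf10b and -0.41 for Tnfrsf1a. Those of Tnfsf13, Tnfsf12 and Tnfrsf22 lost their call under at least 1 alternative. Outlying libraries were not looked for, because each genotype has 2.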

How the results depend on the processing

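The counts of members called changed by less than 1.5 times under the scalings, filters, DESeq2 and the fits of the compared groups alone. Requiring more than 2-fold left 1 rise and 4 falls of 4 and 8 in E12, 6 rises and 4 falls of 8 and 7 in E47, 6 of 12 for the difference, 5 rises of 9 for E12 WT against E47 WT, and 5 falls of 9 for E12 KO against E47 KO, by construction of that limit. Leaving out the 4 members that passed the filter only through E47 WT libraries, an alternative chosen after seeing the data, gave 4 falls in E47 and 3 between wild types, by construction, and the same rises. Leaving out 1 library gave 3 to 4 rises and 8 to 8 falls in E12, 7 to 8 rises and 7 to 8 falls in E47, 10 to 12 lower and 0 to 0 higher for the difference, 7 to 9 rises and 6 to 6 falls between wild types, and 3 to 3 rises and 7 to 9 falls between knockouts. A lone library was then assumed to vary like the others. Of the calls, 11 of 12 in E12, 14 of 15 in E47, 9 of 12 for the difference, 13 of 15 between wild types and 9 of 12 between knockouts held under every alternative that could test the member. The counts in E47 and between wild types include members that passed the filter only through E47 WT libraries. The calls lost at least once were Tnfsf13 in E12, Tnfsf12 in E47, Tnfrsf22, Tnfsf13 and Tnfsf12 for the difference, Tnfrsf23 and Tnfsf12 between wild types, and Tnfrsf14, Tnfrsf19 and Tnfrsf10b between knockouts. Signs turned only in values that had not passed the test. These were Tnfrsf25 in E12 (0.20, and -0.35 to 0.20 over libraries left out) and between wild types (-0.04 to 0.52) without the first E12 WT library, Tnfsf9 in E47 (0.00) and Tnfrsf18 between knockouts (-0.03) with upper-quartile scaling, and Tnfrsf26 for the difference without the second E12 WT (0.11) or E47 KO (0.07) library (-0.29 to 0.11 over libraries left out). Tnfrsf1a between wild types turned without the first E47 WT library (0.01), and Tnfrsf18 between knockouts without the first E12 KO (-0.11) or E47 KO (-0.03) library. The cause was not tested. The fit of the compared groups alone was not run for the difference, which needs all 4. No paired analysis was possible because the labels give no numbers shared between genotypes. Depth limits the 11 untested members and Tnfsf11, Tnfrsf14 and Tnfrsf19 in E12 cells.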
